A study of Mus musculus with 5 samples.

Results

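The ATP-binding cassette (ABC) family was followed through 3 RNA-seq libraries of primary adipocytes, chosen as genes of the table whose symbol reads Abc, a subfamily letter from a to g, a number and at most 1 further letter. Of 24330 symbols 50 matched, and 48 are described: 16 in subfamily A, 9 in B, 10 in C, 3 in D, 1 in E, 3 in F and 6 in G. The libraries came from the epididymal fat of wild type C57BL/6 mice 17 weeks old, untreated as far as the labels say, and are called replicates 1, 2 and 3. The series concerned the DNA methylation that Dnmt1 maintains in adipocytes, and its 2 bisulfite libraries, 1 of them from mice without Dnmt1 in adipocytes, were not analysed here. All RNA libraries therefore belonged to 1 group, and the questions the data address are which ABC genes this preparation expressed, at what level, and how far the libraries differed. The labels do not say whether each library came from a separate animal, and errors therefore cover only how these samples spread, part or all of which may be technical. The p-values rest on the signs and sizes of ratios between genes within the same 3 libraries and likewise do not reach beyond them.

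ABC proteins bind and hydrolyse ATP, and most use it to move a substrate across a membrane: sterols and phospholipids in subfamilies A and G, drugs, peptides and bile constituents in B, organic anions in C and fatty acyl-CoA in D. Subfamilies E and F hold soluble proteins that act on ribosomes and translation. In fat, which stores much of the body's free cholesterol, the family is best known for sterol export through Abca1 and Abcg1 and for peroxisomal fatty acid import.

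Levels are given as FPKM, which corrects fragment numbers for transcript length and for how deeply a library was sequenced, so those of different genes can be set side by side within a library. The deposited values hold no read counts, so sequencing depth is unknown and counting error is not given. Markers of adipocytes and of other cell types of fat were detected. The 8 adipocyte markers (Adipoq, Plin1, Cidec, Lipe, Retn, Cfd, Pnpla2 and Slc2a4) were all above FPKM 1 in every library, and so were all 8 endothelial, 8 macrophage, 8 mural, 8 fibroblast and 6 mesothelial markers examined. Replicate 1 stood apart. Its summed adipocyte markers were 3.04-fold the mean of the other libraries (12189 FPKM against 3901 and 4108), and its summed endothelial markers 0.461-fold (1690 against 3832 and 3497). Summed macrophage markers were 2526, 1933 and 2134 FPKM, mural markers 409, 527 and 935, fibroblast markers 714, 847 and 1042, and mesothelial markers 34.8, 61.7 and 132. Summed markers of testis germ cells were 1237 FPKM in replicate 1 against 21.4 and 9.65. In such bulk RNA a difference in the number of cells of a type and a difference in RNA per cell cannot be told apart.

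The family was widely expressed at moderate levels. Of the 48 genes, 31 reached FPKM 1 in every library, which is 64.6% of them against 45.5% of all symbols, and 15 were under FPKM 1 in every library, or 31.2% against 47.2% of all symbols. Abcb5 and Abcb11 were listed at 0 throughout, as were 22.4% of all symbols. The median over the 48 genes was 4.37, 3.84 and 3.97 FPKM in replicates 1, 2 and 3, beside 1.19, 0.511 and 0.747 for all symbols. Their summed FPKM was 446, 381 and 399.9. A few genes held much of that sum. Abcg2, which exports drugs, porphyrins and urate, held 15.1% ± 3.05 (SD, n = 3), the translation factor Abcf1 9.10% ± 1.10, the potassium channel subunit Abcc9 8.77% ± 2.04, and the peroxisomal importer Abcd2 7.27% ± 6.92, and the 6 highest genes together held 52.3%. The share of Abcd2 rested on replicate 1, at 15.3%, 3.72% and 2.84% in replicates 1, 2 and 3. Without replicate 1, a comparison added after seeing the data, its mean share was 3.28%, which placed it at rank 8, and the 6 highest genes held 55.6%, with Abcb1b in its place.

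**Figure D1:**
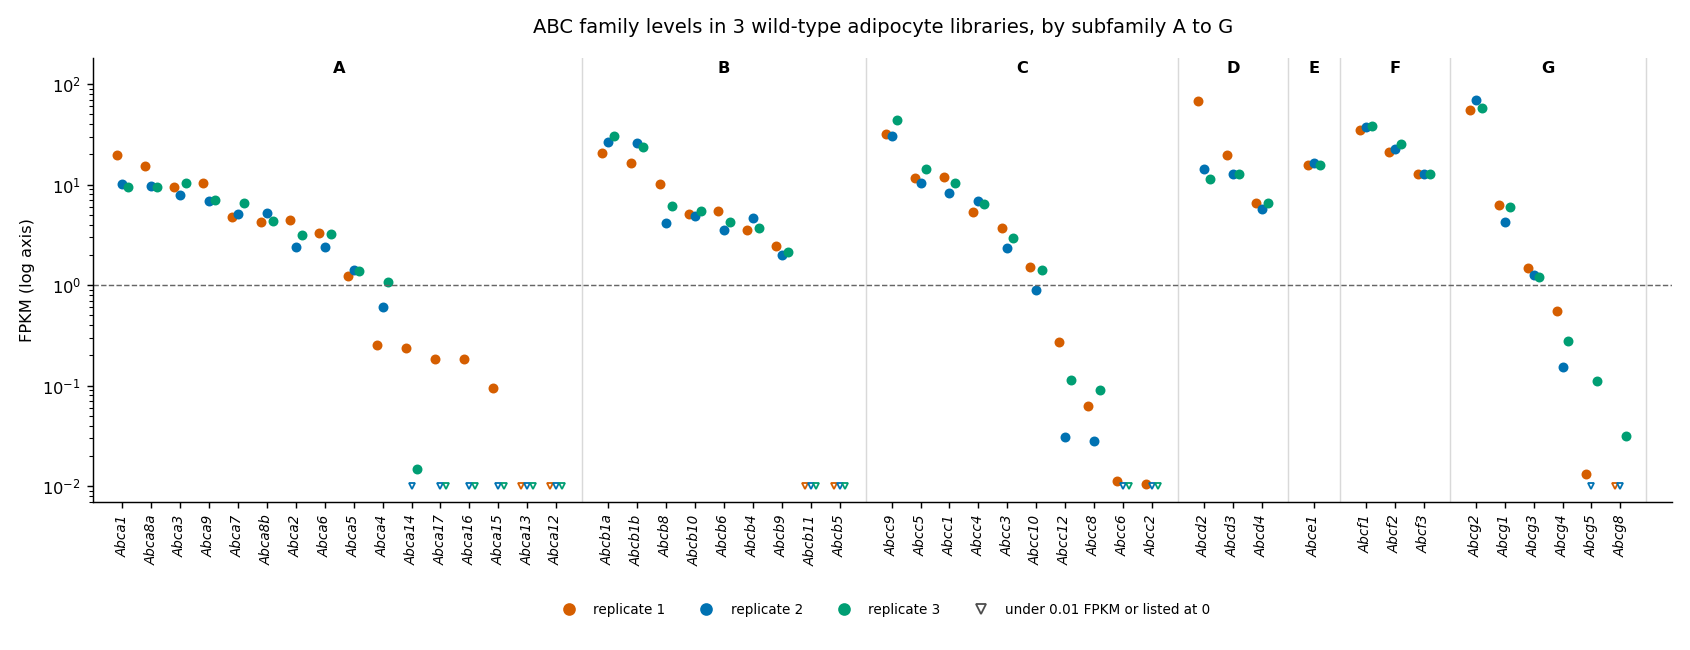
FPKM of each of the 48 ABC genes on a log axis, grouped by subfamily A to G, with 1 point per library; open triangles mark values under 0.01 FPKM or listed at 0, drawn at 0.01, and the dashed line is FPKM 1. All genes of subfamilies D, E and F lie above the line, whereas A, B, C and G each hold genes near the bottom of the axis.

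By subfamily, the soluble proteins and the peroxisomal and lysosomal D genes had the highest medians. On the log2(FPKM + 0.1) scale the median level was 4.52 ± 0.134 (SD, n = 3) for F, 3.99 ± 0.0355 for the single E gene and 3.83 ± 0.409 for D. It was 2.20 ± 0.156 for B, 1.07 ± 0.0942 for A, 1.02 ± 0.338 for C and -0.42 ± 0.398 for G. The subfamilies with the lower medians also held the members near 0: 9 of 16 genes of A, 7 of 9 of B, 5 of 10 of C, 3 of 3 of D, 1 of 1 of E, 3 of 3 of F and 3 of 6 of G reached FPKM 1 in every library. The share over all symbols was 45.5%, and the counts of A, C and G lay near it. Subfamily G, lowest by its median, also held Abcg2, and over members with a mean FPKM of 1 or more its median was 2.47, no longer the lowest.

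Promoter sequence was set beside these levels, since the series concerns methylation of CG dinucleotides. RefSeq promoter windows (GRCm38.p6, 250 bases before to 50 after the gene start) lay within 500 bases of the table's gene start for 35 of the 48 genes. Members at FPKM 1 or more in every library had a median of 22 CG in 300 bases (22 windows, range 2 to 45), and members under FPKM 1 in every library a median of 6 (11 windows, range 1 to 22). The same medians over all symbols were 21 (8197 windows) and 4 (7193 windows), so the family's contrast lay near that of all genes. The GC box GGGCGG, read on both strands, stood in 16 of the 22 windows of detected members and in 0 of the 11 windows of members under FPKM 1, against 67.4% and 25.5% over all symbols in the same classes. The remaining 2 member windows belong to Abca4 and Abcc10, which passed FPKM 1 in some libraries only. The motif TATAAA, on both strands, was found in 5 of the 35 windows (14.3%, against 12.9% of all windows), and the palindrome CACGTG in 6 (17.1% against 8.24%). By class, TATAAA stood in 3 of the 22 windows of detected members (13.6%, against 6.93% of all symbols in that class). In members under FPKM 1 it stood in 1 of the 11 (9.09% against 20.3%). CACGTG stood in 5 of the 22 (22.7% against 10.6%) and in 1 of the 11 (9.09% against 5.42%). These are small counts. No member window held an exact direct repeat of AGGTCA at the spacing that the sterol-sensing receptor LXR binds. Only 1 of 16629 windows in all did, so its absence from the member windows says little. Inexact repeats were not searched for, and whether a member window holds one was not tested. GGGCGG and CACGTG each hold a CG, so their counts overlap with the CG counts.

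Members with few CG were not all silent. The windows below show this within the chromosome 11 cluster of subfamily A, 5 genes that lie side by side (mm10 coordinates of the table, 109933406 to 110337716), and in 3 other members at the extremes of CG count or level; they were chosen after their values were seen. Capitals mark CG, and each window is given 5′ to 3′ on the gene's own strand. Abca9 (2 CG) and Abca8a (4 CG) had mean levels of 8.13 and 11.5 FPKM, above Abca8b (10 CG) at 4.63 and Abca5 (40 CG) at 1.35. Abcg2 (10 CG) had the highest mean of the members described at 61.2, Abcd3 (45 CG, the most of any member window) a mean of 15.0, and Abcb11 (4 CG) was listed at 0 in every library. The windows are chr11:110168104-110168403 minus strand for Abca9, chr11:110095888-110096187 minus for Abca8a, chr11:109995796-109996095 minus for Abca8b, chr11:110337667-110337966 minus for Abca5, chr6:58596422-58596721 plus for Abcg2, chr3:121815253-121815552 minus for Abcd3 and chr2:69342567-69342866 minus for Abcb11.
Abca9: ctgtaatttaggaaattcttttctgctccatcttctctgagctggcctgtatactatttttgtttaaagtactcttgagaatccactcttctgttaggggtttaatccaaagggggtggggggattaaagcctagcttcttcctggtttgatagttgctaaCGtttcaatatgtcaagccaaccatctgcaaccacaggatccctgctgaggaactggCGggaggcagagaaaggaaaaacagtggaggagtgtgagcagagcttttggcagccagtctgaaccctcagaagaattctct
Abca8a: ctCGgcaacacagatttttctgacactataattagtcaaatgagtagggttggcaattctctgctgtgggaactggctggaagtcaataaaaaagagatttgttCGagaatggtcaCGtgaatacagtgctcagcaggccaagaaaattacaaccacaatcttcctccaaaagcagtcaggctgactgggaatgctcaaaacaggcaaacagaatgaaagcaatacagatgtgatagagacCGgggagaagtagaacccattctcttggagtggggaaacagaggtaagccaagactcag
Abca8b: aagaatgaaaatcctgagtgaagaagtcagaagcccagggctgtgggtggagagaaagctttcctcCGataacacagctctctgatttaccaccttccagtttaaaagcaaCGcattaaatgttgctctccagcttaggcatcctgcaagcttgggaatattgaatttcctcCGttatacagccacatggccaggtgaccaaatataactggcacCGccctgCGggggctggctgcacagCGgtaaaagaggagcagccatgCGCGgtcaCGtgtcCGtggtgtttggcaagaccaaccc
Abca5: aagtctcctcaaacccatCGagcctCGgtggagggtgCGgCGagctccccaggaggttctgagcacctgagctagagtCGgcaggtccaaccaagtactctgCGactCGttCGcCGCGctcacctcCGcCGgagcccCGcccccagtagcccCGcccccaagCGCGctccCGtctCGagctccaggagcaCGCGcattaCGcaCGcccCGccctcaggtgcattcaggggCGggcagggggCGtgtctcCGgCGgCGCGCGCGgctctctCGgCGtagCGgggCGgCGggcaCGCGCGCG
Abcg2: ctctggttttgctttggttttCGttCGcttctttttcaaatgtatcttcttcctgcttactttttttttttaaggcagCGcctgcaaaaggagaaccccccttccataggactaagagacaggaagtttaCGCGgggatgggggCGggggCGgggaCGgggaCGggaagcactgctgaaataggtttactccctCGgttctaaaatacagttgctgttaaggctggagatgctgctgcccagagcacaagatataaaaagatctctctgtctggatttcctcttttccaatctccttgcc
Abcd3: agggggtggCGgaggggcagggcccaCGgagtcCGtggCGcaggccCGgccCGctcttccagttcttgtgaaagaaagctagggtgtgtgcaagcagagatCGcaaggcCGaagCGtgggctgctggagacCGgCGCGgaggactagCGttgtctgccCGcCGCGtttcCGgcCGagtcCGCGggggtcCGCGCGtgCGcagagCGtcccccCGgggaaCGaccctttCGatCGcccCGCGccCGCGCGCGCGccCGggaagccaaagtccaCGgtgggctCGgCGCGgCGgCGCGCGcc
Abcb11: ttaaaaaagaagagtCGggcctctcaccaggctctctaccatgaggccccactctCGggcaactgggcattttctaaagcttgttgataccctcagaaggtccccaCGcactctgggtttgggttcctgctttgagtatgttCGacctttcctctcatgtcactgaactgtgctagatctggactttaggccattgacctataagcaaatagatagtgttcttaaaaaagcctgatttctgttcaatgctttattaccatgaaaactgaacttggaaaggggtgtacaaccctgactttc

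The palindrome CACGTG occurs in the windows of Abca8a and Abca8b and in neither of the other cluster windows shown. The window of Abcg2 holds 2 GC boxes and 1 TATAAA match, and that of Abca5 holds 5 GC boxes. These matches describe letters in a window and carry no measurement of binding or methylation.

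**Figure D2:**
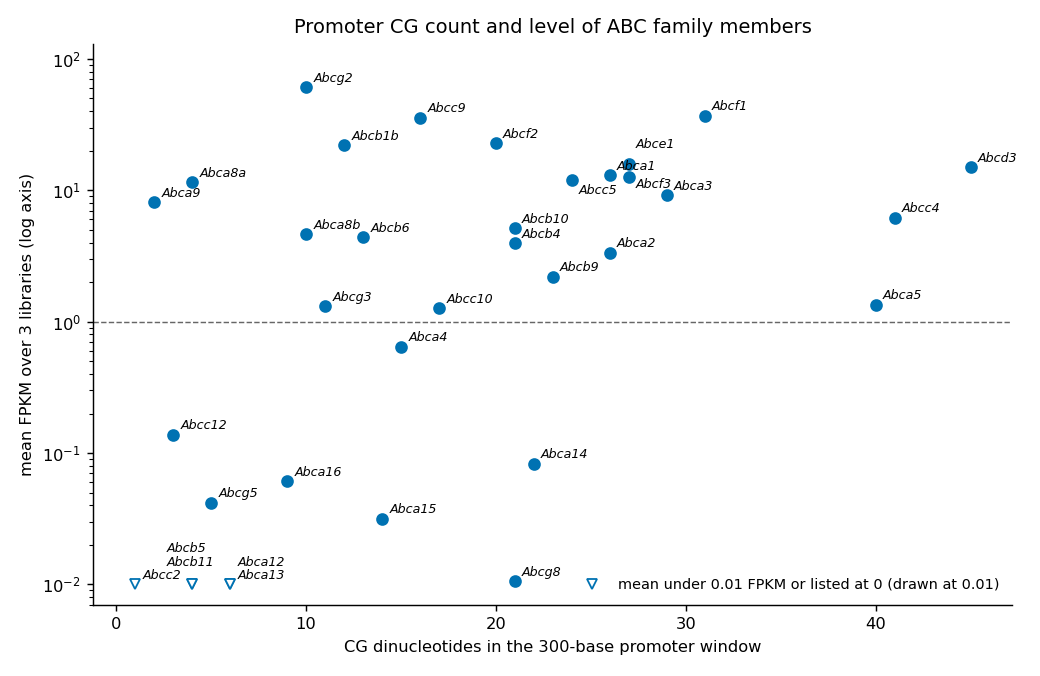
Mean FPKM over the 3 libraries (log axis) against the number of CG dinucleotides in the 300-base RefSeq promoter window for the 35 members with a window; triangles mark means under 0.01 FPKM, drawn at 0.01. Members with 23 or more CG all lie above FPKM 1, while members with few CG range from 0 to 61.2 FPKM for Abcg2.

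Of the exporters of sterol and phospholipid, Abca1, Abca7 and Abcg1 reached FPKM 1 in every library and Abcg4, Abcg5 and Abcg8 in none. Abca1 (chromosome 4, 53030789 to 53159895), which loads cholesterol and phospholipid onto lipid-poor apolipoprotein A-I, stood at 19.5, 10.1 and 9.52 FPKM in replicates 1, 2 and 3. Abcg1 (chromosome 17, 31057694 to 31117981), which passes sterol on to mature lipoproteins, stood at 6.20, 4.29 and 6.01. Replicate 1 was thus the highest library for both, with the wider margin for Abca1. Abca1 exceeded Abcg1 in 3 of 3 libraries, by 1.17 ± 0.494 log2 units or 2.25-fold. Abca7, a phospholipid transporter of phagocytic cells and brain, stood at 4.72, 5.09 and 6.59 FPKM and was lower than Abca1 by 1.18 ± 0.771 log2 units on average, again in 3 of 3. Abcg4, the close relative of Abcg1 found mainly in brain, stood at 0.554, 0.155 and 0.277 FPKM, 3.80 ± 0.460 log2 units below Abcg1. Abcg5 and Abcg8, which together export sterol into bile and gut, were at most 0.112 and 0.0319 FPKM, and since their loci overlap by 6622 bases in the table their values are uncertain.

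The listed genes around sterol export were present apart from Apoa1. Of 13 listed genes of LXR and sterol handling, 12 reached FPKM 1 in every library, against 45.5% of all symbols. The list was chosen with earlier results of these data known, so the contrast is no test of enrichment. The sterol-sensing receptors Nr1h2 (LXR beta) and Nr1h3 (LXR alpha) stood at 51.0 ± 10.6 and 33.9 ± 5.46 FPKM, and their partner Rxra at 35.0, 19.1 and 22.7. Apoa1, an acceptor for Abca1, was at 0.313 ± 0.164, whereas Apoe, the highest of the 13, was at 2535 ± 271. The lipoprotein receptor Scarb1 and the phospholipid transfer protein Pltp were at 168 ± 23.7 and 366 ± 66.8. Soat1, which esterifies cholesterol, stood at 6.67, 3.12 and 6.00 and Nceh1, which frees it again, at 6.73, 4.80 and 6.72, both lowest in replicate 2.

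Among the other lipid transporters of subfamily A, 7 of 10 genes reached FPKM 1 in every library, against 45.5% of all symbols. The highest were Abca8a, Abca3 and Abca9. Abca8a stood at 15.4, 9.59 and 9.57 FPKM and its neighbour Abca9 at 10.4, 6.91 and 7.05. In both genes replicate 1 was highest and replicates 2 and 3 were nearly equal. In the other genes of that cluster replicate 1 stood less apart. Abca8b stood at 4.27, 5.21 and 4.39, Abca6 at 3.34, 2.39 and 3.20 and Abca5, a lysosomal transporter, at 1.22, 1.42 and 1.39. Abca8a exceeded its close copy Abca8b by 1.27 ± 0.50 log2 units and Abca9 exceeded Abca6 by 1.41 ± 0.262, each in 3 of 3 libraries. The functions of Abca6, Abca8a, Abca8b and Abca9 are less settled than those of Abca1, and reads of such close copies are hard to assign, so their single values are uncertain.

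Abca3, the phospholipid pump of surfactant storage bodies in lung, stood at 9.44, 7.85 and 10.3 FPKM, although the table has another row, D330041H03Rik, with 9.41, 8.69 and 8.58 FPKM that overlaps its end by 724 bases. Abca2, an endosomal and lysosomal lipid transporter of brain, stood at 4.47, 2.42 and 3.18 and was lower than Abca3 in 3 of 3 libraries, with a log2 ratio of -1.46 ± 0.345. Abca4, the retinoid flippase of photoreceptors, stood at 0.253, 0.599 and 1.08, so that only replicate 3 reached FPKM 1. Abca12, which loads lipid for the skin barrier, and Abca13 were at most 0.00332 and 0.00484 FPKM.

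The subfamily A genes known from mouse testis, Abca14, Abca15, Abca16 and Abca17, were close to 0 but not evenly so. In replicate 1 they stood at 0.235, 0.0948, 0.184 and 0.186 FPKM. In replicate 2 all 4 were listed at 0, and in replicate 3 they reached at most 0.0148. Replicate 1 is also the library in which 8 of 8 testis germ cell markers were highest, among them Prm1 at 348 FPKM against 4.07 and 3.90 and Acrv1 at 2.31 against a listed 0 in both others; the part of that RNA in these values was not tested. Abcc12, also known mainly from testis, had the same order of replicate 1 as highest, at 0.270, 0.0309 and 0.113 FPKM.

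The drug exporters held the largest mean share of the family's summed FPKM among the 12 role groups, at 20.7%, 32.3% and 28.1% in replicates 1, 2 and 3. Abcg2 (chromosome 6, 58596672 to 58692451) stood at 55.2, 70.0 and 58.4 FPKM. Abcb1a and Abcb1b (chromosome 5, 8660092 to 8748570 and 8798147 to 8866314), the mouse genes for P-glycoprotein, stood at 20.8, 26.8 and 30.3 and at 16.6, 26.1 and 23.6. All 3 genes were lowest in replicate 1, which is the order of 32.8% of all symbols with a mean FPKM of 1 or more. Abcb1a is the form found in brain capillaries, and all 8 endothelial markers were likewise lowest in replicate 1. The log2 difference of replicate 1 from the mean of the others ranged from -1.22 to -0.93 for these markers, beside -0.46 for Abcb1a, -0.58 for Abcb1b and -0.21 for Abcg2. Summed mural markers (409 FPKM against 527 and 935), fibroblast markers (714 against 847 and 1042) and mesothelial markers (34.8 against 61.7 and 132) were lowest in replicate 1 as well. Single genes of these lists did not all follow: the mural Pdgfrb and Cspg4, the fibroblast Pdgfra and the mesothelial Wt1 were lowest in replicate 2. The part of RNA from any of these cell types in the values of the drug exporters was not tested. Abcg2 exceeded Abcb1a in 3 of 3 libraries, with a log2 ratio of Abcb1a to Abcg2 of -1.24 ± 0.260. Abcb1a exceeded Abcb1b by 0.24 ± 0.176, in 3 of 3 but with 0.04 in replicate 2, and the copies are so alike that reads may have been split between them. Abcg3, a rodent relative of Abcg2, stood at 1.47, 1.27 and 1.20 FPKM.

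Transporters of bile and liver were low with 1 exception. Abcb4, the phosphatidylcholine pump of bile canaliculi and the neighbour of Abcb1b, stood at 3.51, 4.64 and 3.71 FPKM. Abcb11, the bile salt pump, was listed at 0 in every library, and Abcc2, the canalicular organic anion pump, had 0.0104 FPKM in replicate 1 and 0 in the others. Abcc6, a liver protein needed for release of ATP, was at most 0.0114.

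**Figure D3:**
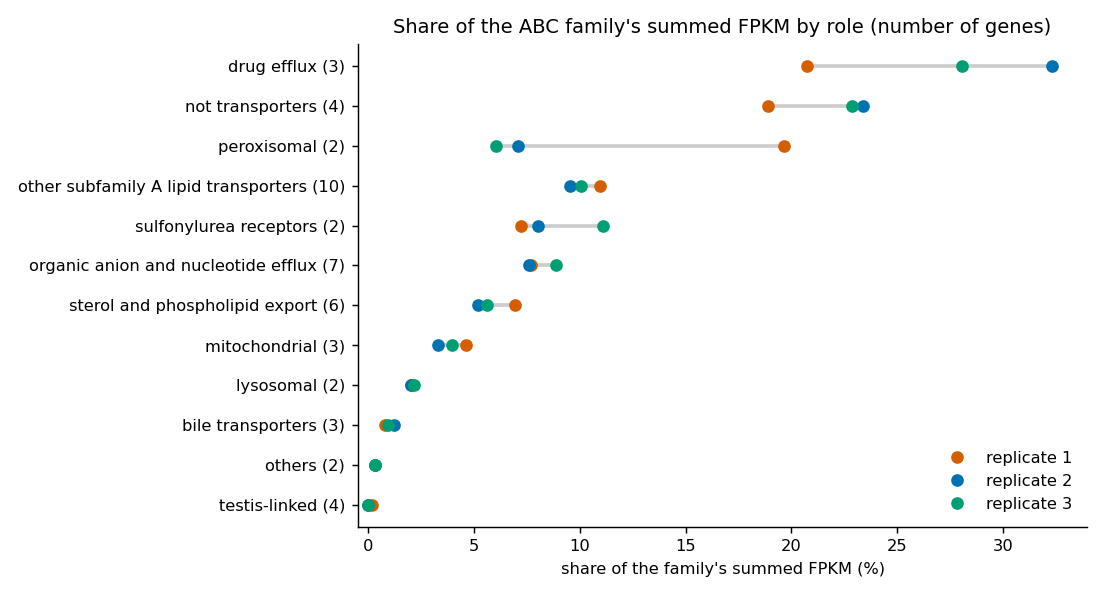
Share of the family's summed FPKM in percent for each of 12 role groups, with 1 point per library and the number of genes in brackets; grey lines join the lowest and highest library. The peroxisomal genes held 19.6% in replicate 1 against 7.08% and 6.04%, the widest range relative to its size among groups with more than 1% of the sum.

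The peroxisomal importers included the member with the widest range between libraries among those with a mean FPKM of 1 or more. Abcd2 (chromosome 15, 91145871 to 91191807), which imports very long-chain and polyunsaturated acyl-CoA, stood at 68.1, 14.2 and 11.4 FPKM, so that replicate 1 was 5.33-fold the mean of the others. Abcd3, which imports branched-chain and dicarboxylic acyl-CoA, stood at 19.6, 12.8 and 12.8. Abcd2 was above Abcd3 in replicates 1 and 2 and below it in replicate 3. Pex19 and Pex3, which insert peroxisomal membrane proteins, stood at 40.7, 26.3 and 27.4 and at 18.2, 9.63 and 8.87, both highest in replicate 1 as Abcd2 and Abcd3 were.

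Abcd2 and the 8 adipocyte markers were all highest in replicate 1. The difference of Abcd2 between replicate 1 and the mean of the others was 2.41 log2 units. It lay above that of each of the 8 markers, which ranged from 1.25 for Pnpla2 to 2.12 for Plin1. From replicate 2 to 3 Abcd2 fell, as did Retn and Slc2a4, while the summed adipocyte markers rose from 3901 to 4108 FPKM. Summed macrophage markers (2526 FPKM against 1933 and 2134) and testis germ cell markers (1237 against 21.4 and 9.65) were highest in replicate 1 as well. The macrophage margin was small, and Cd68 was highest in replicate 3 (172, 126 and 212 FPKM). More than 1.5-fold above both other libraries in replicate 1 were 0 of 8 macrophage and 8 of 8 adipocyte markers, against 14.5% of all symbols with a mean FPKM of 1 or more. The part of RNA from any of these cell types in the value of Abcd2 was not tested.

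The lysosomal genes were steady. Abcd4, which with Lmbrd1 carries cobalamin out of lysosomes, stood at 6.57, 5.70 and 6.54 FPKM, and Lmbrd1 itself at 15.2 ± 1.11. Mmachc, which receives that cobalamin in the cytosol, was at 7.49, 2.34 and 2.98, highest in replicate 1. Abcb9, a lysosomal peptide transporter, stood at 2.43, 1.99 and 2.16.

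The mitochondrial half-transporters of subfamily B described here, Abcb6, Abcb8 and Abcb10, all reached FPKM 1 in every library. Abcb8, of the inner membrane, had the highest mean and the widest range, at 10.1, 4.17 and 6.06 FPKM. Abcb10, which is needed for haem synthesis in red cell precursors, stood at 5.09, 4.85 and 5.50 and Abcb6, linked to porphyrin transport, at 5.43, 3.51 and 4.24. Abcb6 was below Abcb8 in 3 of 3 libraries, with a log2 ratio of -0.54 ± 0.318. Among genes of haem synthesis and its iron supply, Alas1 stood at 84.7, 31.9 and 38.6 FPKM, Fech at 23.0, 15.1 and 14.9 and Slc25a37, which Abcb10 binds, at 6.10 ± 0.320. The 7 listed partner genes were these and the peroxisomal and cobalamin genes Pex19, Pex3, Lmbrd1 and Mmachc. Of the 7, 4 (Alas1, Fech, Pex3 and Mmachc) were more than 1.5-fold higher in replicate 1 than in both other libraries. That is a pattern of 14.5% of all symbols with a mean FPKM of 1 or more. The list was chosen with earlier results of these data known, so the contrast is no test.

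Of the 7 subfamily C exporters of organic anions and nucleotides, 4 reached FPKM 1 in every library, against 45.5% of all symbols. Abcc5, which exports cyclic nucleotides, and Abcc1, which exports glutathione conjugates and leukotriene C4, were the highest, at 11.6, 10.5 and 14.2 and at 12.0, 8.31 and 10.3 FPKM. They had no common order, with a log2 ratio of Abcc1 to Abcc5 of 0.06, -0.33 and -0.45 (mean -0.24 ± 0.265, exact permutation p = 0.5). Abcc4, an exporter of cyclic nucleotides and prostaglandins, stood at 5.34, 6.83 and 6.42, below Abcc5 in 3 of 3 libraries with a ratio of -0.95 ± 0.294. Abcc3, an exporter of glucuronides, stood at 3.67, 2.36 and 2.95. Abcc10 was at the threshold, at 1.51, 0.889 and 1.42, and Abcc6 and Abcc12 were low as given above.

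The sulfonylurea receptors, which are not pumps but regulatory subunits of ATP-sensitive potassium channels, were split. Abcc9 (chromosome 6, 142587862 to 142702274), the subunit of muscle and vessel wall, stood at 32.2, 30.6 and 44.3 FPKM. Abcc8, the subunit of pancreatic beta cells, was at most 0.0916. Their pore subunits lie next to them in the genome and showed the same split. Kcnj8, whose locus ends 16505 bases from that of Abcc9, stood at 52.8, 61.8 and 75.6 FPKM, whereas Kcnj11, 3758 bases from Abcc8, was listed at 0 in replicates 1 and 2 and at 0.0208 in replicate 3. Abcc9 was below Kcnj8 in 3 of 3 libraries, with a log2 ratio of -0.83 ± 0.159. Both were highest in replicate 3, where the summed mural markers were also highest, at 935 FPKM against 409 and 527. Summed fibroblast markers (1042 FPKM against 714 and 847) and mesothelial markers (132 against 34.8 and 61.7) were highest there too, although the fibroblast marker Pdgfra was highest in replicate 1 and Lum in replicate 2. The part of RNA from any of these cell types in the values of Abcc9 and Kcnj8 was not tested.

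The members that do not transport anything varied little, each with a highest library less than 25% above the lowest, as in 30.2% of all symbols with a mean FPKM of 1 or more. Abce1, which splits ribosomes after termination, stood at 15.7, 16.3 and 15.5 FPKM. Abcf1, which takes part in translation initiation, stood at 35.0, 37.6 and 38.2, Abcf2 at 20.9, 22.4 and 25.2 and Abcf3 at 12.7, 12.8 and 12.6. The highest library was 1.01-fold the lowest for Abcf3, 1.05-fold for Abce1, 1.09-fold for Abcf1 and 1.20-fold for Abcf2. Abcf1 exceeded Abcf3 by 1.54 ± 0.0682 log2 units and Abce1 was below Abcf2 with a ratio of -0.52 ± 0.149, each in 3 of 3.

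Genes of the family named outside the Abc scheme, and so outside the rule, included 1 with a mean above that of Abcg2. Tap2 and Tap1, the paired subunits of the transporter that brings peptides to MHC class I, stood at 46.4, 76.0 and 82.9 FPKM (mean 68.4) and at 15.5, 20.8 and 28.0 FPKM, both lowest in replicate 1. Tap1 was below Tap2 in 3 of 3 libraries with a log2 ratio of -1.67 ± 0.171. The other peptide-loading genes listed, Tapbp, B2m, Canx and Pdia3, all reached FPKM 1 in every library, with Tapbp at 80.8, 98.2 and 112. Cftr, the chloride channel of the family, was at most 0.0620.

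**Figure D4:**
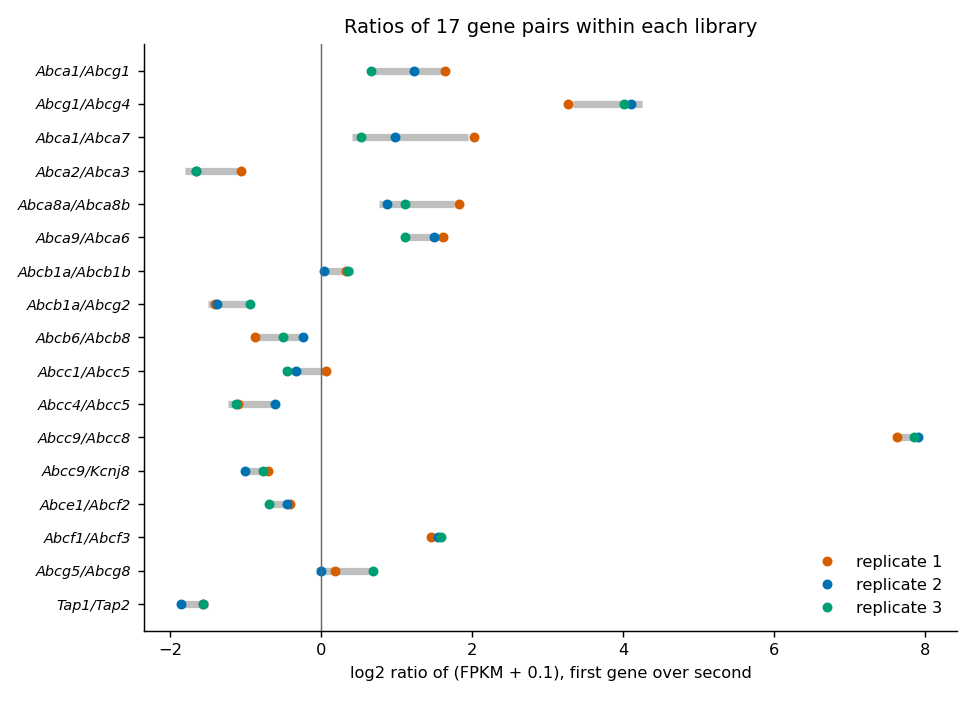
Log2 ratio of (FPKM + 0.1), first gene over second, for 17 gene pairs; points are the 3 libraries and grey bars span the mean ± 1 SD. In 15 pairs all 3 points lie on 1 side of 0, and Abca1 over Abca7 has the widest spread, from 0.52 to 2.03.

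Among the 17 gene pairs compared, 15 kept their direction in all 3 libraries. For each of these the exact permutation of signs gave p = 0.25, the smallest that 3 libraries allow, and 0.283 once adjusted by Benjamini-Hochberg across pairs, so no ratio could pass 0.05. The remaining pairs were Abcc1 with Abcc5 and Abcg5 with Abcg8 (log2 ratio 0.18, 0 and 0.69), of which the latter genes were near 0. For both the permutation p was 0.5 before and after adjustment. In the order of mean levels from Abcg2 down to Abcc10, 8 of 31 neighbouring pairs kept their order in 3 of 3 libraries, and the ranges of 3 pairs did not overlap: Abcg2 over Abcf1, Abcb1b over Abce1, and Abcb9 over Abca5. The ranges of the other 28 neighbouring pairs overlapped.

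Between libraries, a smaller share of members than of all symbols ranged over 2-fold. Of the 32 members with a mean FPKM of 1 or more, 3 (9.38%) had a highest library over 2-fold the lowest, against 18.8% of all symbols with that mean. They were Abcd2 at 5.98-fold, Abcb8 at 2.41-fold and Abca1 at 2.05-fold, and each was highest in replicate 1. Without replicate 1 no member passed 2-fold. At the other end, 10 of 32 members (31.2%) had a highest library less than 25% above the lowest, against a background of 30.2%. The 4 soluble proteins were among them, with Abca5, Abca8b, Abcb9, Abcb10, Abcd4 and Abcg3.

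Replicate 1 was the highest library for 16 of the 32 members (50%, against 46.7% of all symbols) and the lowest for 10 (31.2%, against 32.8%). Abca1, Abca8a, Abcb8, Abcd2 and Abcd3 were more than 1.5-fold above both other libraries there, 15.6% of members against 14.5% of all symbols, and 0 members were as far below both, against 6.15%. The median difference of replicate 1 from the mean of the others over the 32 members was 0.09 log2 units (quartiles -0.18 and 0.47), beside 0.08 (-0.21 and 0.44) for all symbols. The counts were thus near the background, and the members differed in direction: 2.41 for Abcd2, 0.98 for Abca1 and 0.99 for Abcb8 at the upper end, and -0.46 for Abcb1a and -0.58 for Abcb1b at the lower.

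**Figure D5:**
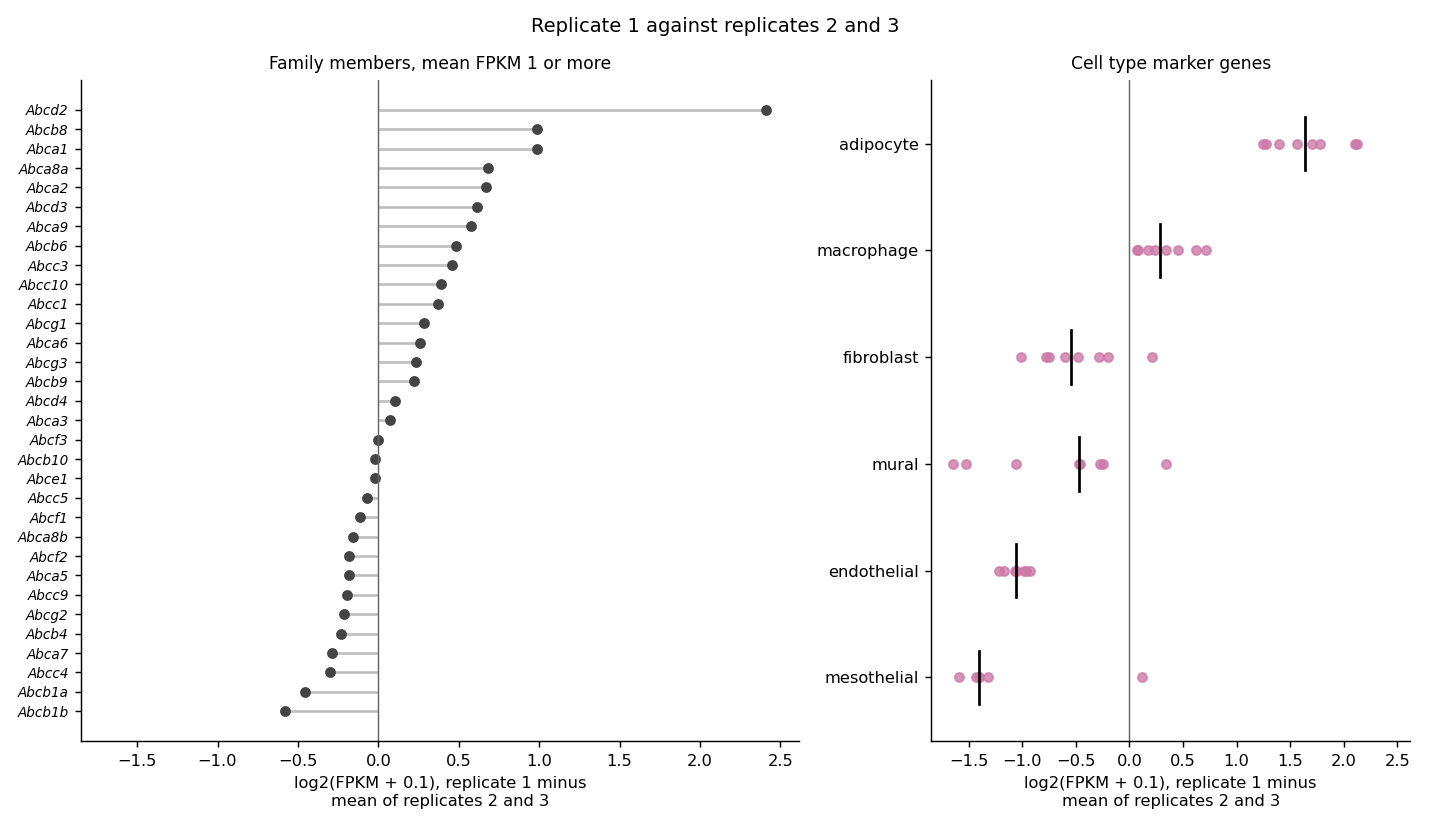
Left, log2(FPKM + 0.1) in replicate 1 minus the mean of replicates 2 and 3 for the 32 members with a mean FPKM of 1 or more; right, the same for single marker genes of 6 cell types, with black bars at each list's median. Abcd2 at 2.41 lies beyond the adipocyte markers (median 1.64), while the lowest member, Abcb1b at -0.58, lies above the endothelial median of -1.05.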

How the data were processed

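The authors deposited 1 table of FPKM values with 1 column per RNA library; no source used here gives the program that made them. Per the submitters' processing notes, featureCounts, Trim Galore 0.5.0 and Bismark 0.22.1 were used and the genome was GRCm38 or mm10, with no role stated for any. Strand is not stated, so reads of overlapping genes cannot be told apart. Each column was matched to its library by its name in the sample description. Table starts, counted from 0, are printed counted from 1. Of 24889 rows, 27 with a calendar date as symbol were left out, and 273 symbols had several rows, of which that of highest mean FPKM was taken; each member had 1 row. Results for 2 of the 50 matching genes are not reported here, and counts, shares, medians and the adjustment over pairs leave them out. A listed 0 can be a failed estimate.

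Levels are FPKM or log2(FPKM + 0.1), a scale on which ratios involving genes near 0 come out too small. Ratios were formed within libraries and tested by an exact two-sided sign-flip permutation. Members, pairs, role groups, pathway and partner lists and marker lists were chosen with earlier results of these data known. Members described are all named; values in every library were given for those reaching FPKM 1. Promoter sequences are from RefSeq (GRCm38.p6), matched by symbol, with the window nearest to the table's start; Abca6, Abca7, Abca17, Abcb1a, Abcb8, Abcc1, Abcc3, Abcc6, Abcc8, Abcd2, Abcd4, Abcg1 and Abcg4 had none within 500 bases. That limit was set after seeing the data. Python 3.11.15, numpy 2.4.6, pandas 2.3.3 and matplotlib 3.10.9 were used. Alternatives covered the pseudocount, thresholds, filters on low values, TPM scaling, summed rows and leaving out each library.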

Additional observations from a re-analysis of the deposited data

How the results depend on the processing

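The count of members at FPKM 1 or more in every library was 31 or 32 under TPM scaling, summed rows, a threshold of 0.5 and leaving out any 1 library, and 18 at a threshold of 5. The count over 2-fold was 3, also among members with a mean FPKM of 5 or more and with summed rows, or 4 after TPM scaling and 6 among members with a mean FPKM of 0.1 or more, and ranged from 0 to 2 with 1 library left out, the 0 being without replicate 1. TPM scaling raised the median of symbols with a mean FPKM of 1 or more (log2 shifts of 0.98, 1.02 and 0.92 by library), and the subfamily medians became 2.01, 3.16, 1.96, 4.81, 4.97, 5.50 and 0.43 for A to G. With a pseudocount of 1 the medians of A, B, C, E and G were 1.60, 2.46, 1.58, 4.07 and 0.80. Means over members gave 0.22, 1.43, 0.54 and 0.24 for A, B, C and G, and members with a mean FPKM of 1 or more gave 2.47, 2.40, 2.99 and 2.47. All 17 pair ratios kept the sign of their mean under each alternative pseudocount and scaling, with summed rows and with any 1 library left out. The median difference of replicate 1 over members was -0.01 among members with a mean FPKM of 5 or more and between 0.01 and 0.20 with replicate 2 or 3 left out. No paired analysis was possible because there is 1 group of RNA libraries. Depth is unknown, so values under FPKM 1 carry an error that could not be given.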
